A study of Mus musculus with 2 samples.

Results

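Adventitial-like fibroblasts (FB) of the grafted intestine were selected on measured values, from the unique molecular identifiers (UMIs, each counting 1 captured RNA molecule) of marker genes in single cells. A barcode had to carry at least 500 genes, at most 10% mitochondrial UMIs and at least 1 UMI of Dcn, which encodes the matrix proteoglycan decorin of FB. It also had to carry a UMI of at least 2 of 4 marker genes, Pi16, Scara5, Dpp4 and Sema3c, and UMIs of fewer than 2 of Bmp3, Bmp5 and Bmp7, genes of FB beneath the epithelium. The rule took 1554 cells, 949 of the 9275 Dcn-positive cells of the LI graft and 605 of the 7048 of the SI graft, out of 17783 cells that passed the limits on genes and mitochondrial UMIs and 21199 barcodes in all.

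Embryonic large intestine (LI graft) and small intestine (SI graft) of mice of the strain EYFP (C57BL/6), from EYFP males bred to C57BL/6Nrj females, were grown for 4 weeks beneath the capsule of the kidney in adult WT hosts. The tissue of both groups carries the EYFP reporter, which the sort used to separate graft cells from cells of the unlabelled host. Enlarged grafts were dissociated, and live YFP+ Itgb1+ stromal cells were sorted after exclusion of cells with the blood markers CD45 and Ter119, the endothelial CD31, the epithelial EpCAM, L1CAM or BP3 for single-cell RNA sequencing. Each group is 1 library of pooled grafts, so differences between the grafts have no replicate check and no test. Intervals are at the 95% level and cover counting error only.

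FB of the adventitia lie around larger blood vessels and in the deep layers of the gut wall. In many mouse tissues they are recognised by Pi16, a secreted peptidase inhibitor, Dpp4 (CD26), a membrane dipeptidyl peptidase, Scara5, a scavenger receptor that takes up ferritin, and Sema3c, a secreted guidance semaphorin. They are also known for CD34 and Ly6 surface proteins, for elastic fibre proteins, and for a place near the start of FB lineages in several organs. In the intestine, lamina propria FB near the epithelium carry other programmes, such as the metalloprotease-like Adamdec1 or the Bmp ligands. On the mouse build GRCm38, Pi16 lies on the plus strand of chromosome 17 (chr17:29317680-29330593), Scara5 on chromosome 14 (chr14:65666403-65764826, plus strand), Dpp4 on chromosome 2 (chr2:62330073-62412231, minus strand) and Sema3c on chromosome 5 (chr5:17574281-17730268, plus strand).

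The LI library held 63348069 UMIs and the SI library 54918006 UMIs, and 26 barcode sequences occurred in both libraries, none of them among the selected cells (0 shared). Selected cells were deeper than the other Dcn-positive cells. Their median was 8371 UMIs against 5174.5 in the LI graft and 9224 against 5660 in the SI graft, and a rule that asks for UMIs of several genes takes deep cells more readily. The selected cells together carried 9299604 UMIs in the LI and 5733788 in the SI graft. A gene's level below is its UMIs pooled over the cells and scaled to the UMI total of those cells (CPM), and a difference is a log2 ratio of CPM after adding 1 CPM to both sides.

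Selected cells made up 10.2% of the Dcn-positive cells of the LI graft (exact binomial interval 9.62 to 10.9) and 8.58% of those of the SI graft (7.94 to 9.26). The intervals did not overlap. After every cell was thinned to 2000 UMIs and the rule applied anew, the shares were 3.27% (2.90 to 3.68) and 2.94% (2.54 to 3.39), and these intervals overlapped. Thinning left out 15 of the LI and 6 of the SI selected cells as too shallow. Mural cells should lack this programme, so barcodes with at least 3 pericyte markers were looked at. Among them 5.25% of 1124 in the LI graft and 1.09% of 1739 in the SI graft carried at least 2 of the 4 marker genes, at median depths of 5350 and 5123 UMIs. Of these barcodes 856 and 1066 carried a Dcn UMI, and 56 and 18 were selected cells themselves, so they are no clean background. Pericyte-marked barcodes without a Dcn UMI, at median depths of 4344.5 and 4437 UMIs, are given beside them, but asking for no Dcn UMI also removes barcodes that took up free FB RNA. Their shares are therefore low by construction and do not measure the background in Dcn-positive cells. They gave 0 of 268 and 0 of 673, which allows shares of up to 1.37% and 0.547% (exact upper bounds). At 2000 UMIs they gave 0 of 250 and 0 of 625, and all pericyte-marked barcodes 0.646% and 0.121%, against 3.21% and 2.84% of the Dcn-positive cells.

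Cells of male and female embryos were told apart by Xist and Y-linked UMIs, and they stand for different grafts or embryos within each pool. Of the LI selected cells 720 were female, 129 male and 100 unclear, and of the SI selected cells 274 were female, 230 male and 101 unclear. The selected cells were a larger share of male than of female Dcn-positive cells in both libraries. In the LI graft the shares were 15.6% (13.2 to 18.2) of male and 9.58% (8.93 to 10.3) of female cells. In the SI graft they were 13.9% (12.2 to 15.6) and 6.88% (6.12 to 7.72). These shares by sex were taken without thinning to equal depth, so the part of depth in them was not tested. Sex and individual graft cannot be told apart here.

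Pi16 was the marker gene found most often in the selected cells of both grafts, Sema3c was found more often in the SI than in the LI graft, and Dpp4 was the rarest of the 4 genes. These values describe the rule and are no result of their own. Pi16 had a UMI in 88.4% of LI and 74.4% of SI selected cells, and in 13.1% and 6.52% of the other Dcn-positive cells. Scara5 was found in 67.4% and 70.7% of selected cells, against 2.88% and 1.65% of the others. Sema3c was found in 50.3% and 73.2%, against 23.5% and 19.5%. Dpp4 was found in 21.3% and 17.7%, against 0.769% and 0.761%. In the pericyte-marked barcodes without Dcn the shares were 2.61% and 0.743% for Pi16, 0.373% and 0% for Scara5, 6.34% and 1.04% for Sema3c, and 0% and 0% for Dpp4, where a count of 0 allows up to 1.37% (LI) and 0.547% (SI). At 2000 UMIs, Pi16 remained detectable in 57.8% and 48.2% of the selected cells, Scara5 in 27.0% and 30.9%, Sema3c in 18.4% and 27.4%, and Dpp4 in 7.17% and 6.51%.

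Pooled levels were led by Pi16 as well. Pi16 stood at 861 CPM in LI and 712 CPM in SI selected cells, against 109 and 44.9 CPM in the others. Scara5 stood at 142 and 195 CPM against 7.02 and 3.58 CPM. Sema3c stood at 97.1 CPM in the LI and 185 CPM in the SI selected cells against 60.8 and 44.3 CPM, so that in the LI graft it separated the groups least.

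The pairs and triples of marker genes differed between the grafts. Pi16 with Scara5 alone was the most frequent combination of the LI graft, with 355 cells or 37.4% (34.3 to 40.6) of the selected cells, against 105 cells or 17.4% (14.4 to 20.6) in the SI graft. The triple of Pi16, Scara5 and Sema3c led in the SI graft with 144 cells or 23.8% (20.5 to 27.4), against 110 cells or 11.6% (9.62 to 13.8) in the LI graft. Scara5 with Sema3c alone made up 21.7% of SI and 8.43% of LI selected cells, and Pi16 with Sema3c alone 19.5% and 21.3%. All 4 genes were found together in 43 LI and 22 SI cells.

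**Figure D1:**
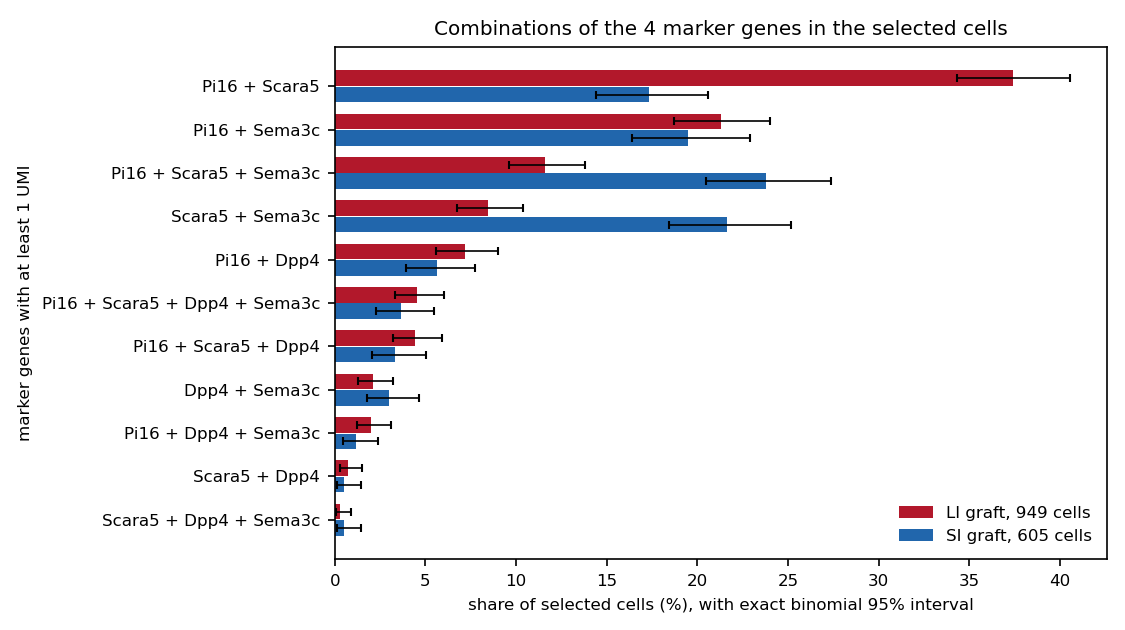
Share of the selected cells (x axis, %) with each combination of UMIs of the 4 marker genes (y axis), LI graft in red and SI graft in blue, with exact binomial 95% intervals. Pi16 with Scara5 alone stands at 37.4% in the LI and 17.4% in the SI graft, and the combinations with Dpp4 all stay under 10%.

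Just inside the limit, 732 LI and 409 SI cells carried exactly 2 marker genes, at median depths of 7855 and 8378 UMIs. Just outside it, 3308 LI and 1804 SI cells carried 1 marker gene, at 5886.5 and 6804.5 UMIs. The limit on Bmp genes turned away 19 LI and 11 SI cells. Genes outside the rule changed stepwise with the number of marker genes on both sides of the limit. Igfbp6, a secreted protein that binds insulin-like growth factors, went from 203 CPM with 0 markers through 490 and 1040 to 1304 and 1425 CPM with 4 markers in the LI graft. In the SI graft it went from 105 through 405, 1340 and 2359 to 4208 CPM. Ly6c1, a surface antigen, went from 52.3 through 97.2, 215 and 580 to 1401 CPM in the LI graft. Adamdec1 went the other way, from 3843 and 2897 CPM in cells with 0 and 1 markers to 444, 221 and 143 CPM in the LI graft, and from 2415 and 2395 to 452, 206 and 191 CPM in the SI graft. The 15 genes ranked as highest in the selected cells were in rising order from 0 to 3 markers in 15 of 15 cases in each library, and the 10 lowest genes in falling order in 8 of 10. Both sets were chosen for their difference across the limit of 2 markers. The median depth also rose with the number of markers, up to 14433 and 11325 UMIs at 4 markers, and its part in these steps was not tested. Col1a1, the main fibrillar collagen chain, had no such order. It stood at 4740, 5672, 5703, 5261 and 3408 CPM in the LI graft.

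**Figure D2:**
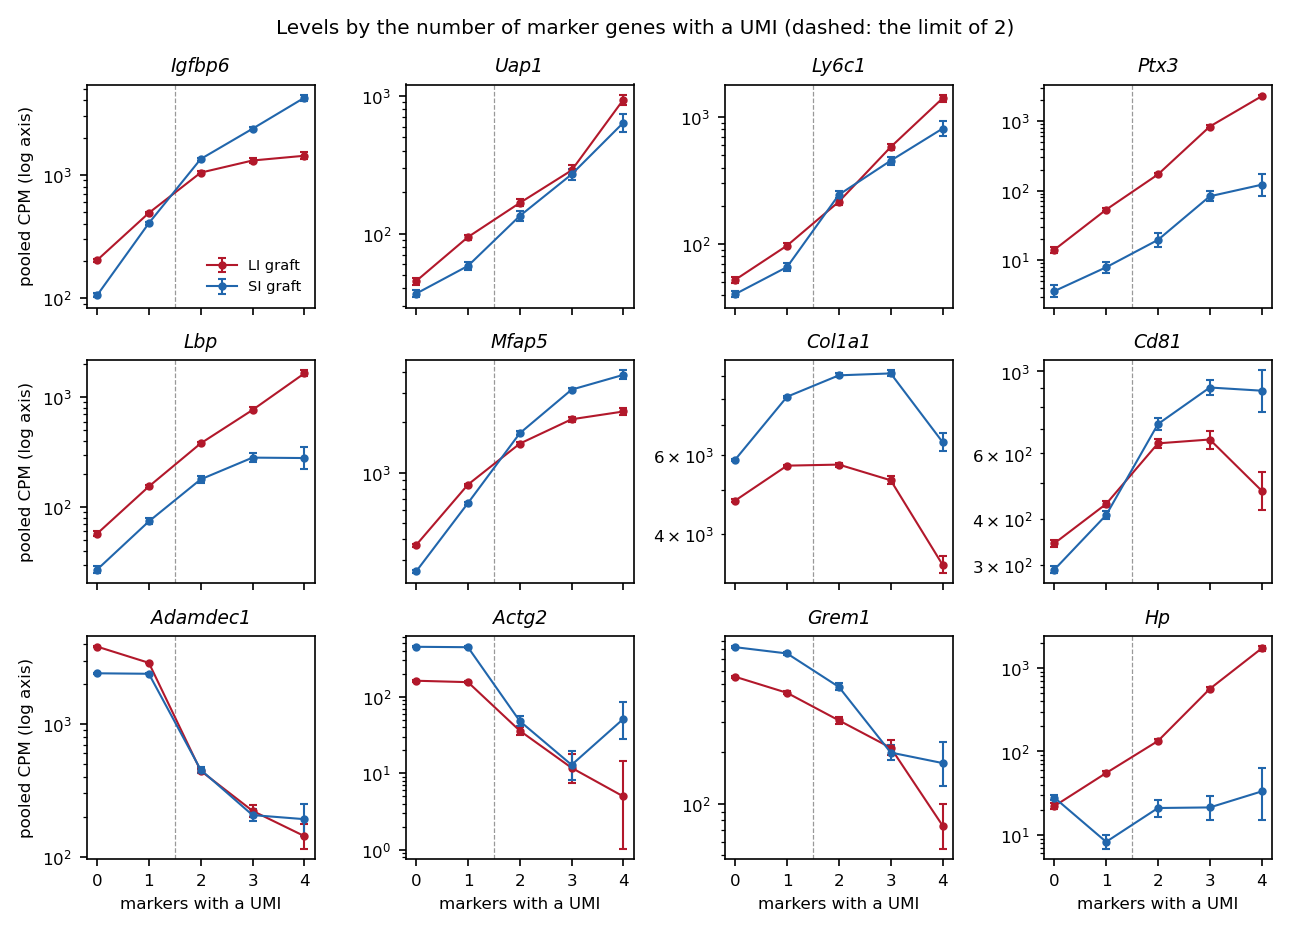
Pooled level (y axis, CPM on a log scale, with Poisson 95% intervals) of 12 genes in Dcn-positive cells with 0 to 4 of the marker genes (x axis), LI graft in red and SI graft in blue; cells right of the dashed line are the selected ones. Igfbp6, Uap1, Ly6c1, Ptx3 and Mfap5 climb in both grafts, Adamdec1 drops between 1 and 2 markers, and Hp climbs in the LI graft from 22.1 to 1731 CPM but not in the SI graft.

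Against the other Dcn-positive cells, the selected cells carried higher levels of most listed adventitial genes, and lower levels of most listed smooth muscle and pericyte genes and of Adamdec1. A gene was called when it differed at least 2-fold in the same direction in both libraries and reached 10 CPM in each. Of 8398 genes, 110 (1.31%) were higher and 213 (2.54%) lower. The median gene differed by -0.09 on the log2 scale among LI cells and by -0.13 among SI cells. The rule used the same cells, so all of these differences are descriptions without a test.

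Of the 19 genes of the adventitial and universal FB list, 16 passed the minimum of 10 CPM, and 12 of them were higher and 0 lower. Their median log2 difference was 1.49 in the LI and 1.70 in the SI graft. Cd34, the sialomucin used to sort such FB, stood at 395 CPM in LI and 876 CPM in SI selected cells, against 187 and 268 CPM in the others (log2 difference 1.08, interval 1.02 to 1.13, and 1.71, 1.66 to 1.75). At 2000 UMIs it was found in 49.9% of LI and 76.6% of SI selected cells, against 25.9% and 32.2% of the others and 0 of 250 (which allows up to 1.46%) and 1.12% of pericyte-marked barcodes without Dcn. Without thinning, the shares in selected cells were 82.3% and 95.4%. Ly6c1 was 2.30 higher in the LI and 2.76 in the SI graft on the log2 scale, though it has a near-identical neighbour gene, Ly6c2, with which reads could be shared. Ly6a (Sca-1), Cd248 (endosialin, a stromal surface protein), Clec3b (tetranectin, a secreted lectin), Anxa3, Il33 (an alarmin cytokine) and Ackr3 (a chemokine scavenging receptor) were also among the 12.

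The 4 members of that list that were measured but not called were Cd55, Creb5, Tppp3 and Procr. Cd55, which protects cells from complement, stood at 0.88 in the LI and 1.70 in the SI graft. Tppp3, a tubulin-binding protein of tendon and fascia progenitors, stood at 0.92 and 1.63, and the factor Creb5 at 0.11 and 1.02. Procr, the endothelial protein C receptor, went against the list, with 69.0 and 17.3 CPM in selected cells against 121 and 109 CPM in the others. Most of the measured markers of the label were thus called in both grafts, but Procr was not, and in male cells alone 6 were called.

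The rest of the 12 were Igfbp6, Has1, Ugdh and Gfpt2, and the last 3 are described here with Uap1, which is not on the list, because all 4 code for enzymes of sugar metabolism. This grouping was made after their values were seen. Has1, which makes hyaluronan, was at 319 CPM in LI and 500.4 CPM in SI selected cells, against 107 and 88.5 CPM in the others. Ugdh, which makes UDP-glucuronate, was at 477 and 634 CPM against 194.5 and 114 CPM, and Uap1, which makes UDP-N-acetylglucosamine, at 242 and 200.4 CPM against 67.9 and 43.7 CPM. Gfpt2, of the hexosamine pathway that feeds it, was at 187 and 260.04 CPM against 55.8 and 50.1 CPM.

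The other genes that led the ranking came from several groups. Pcolce2, which enhances procollagen processing, led it with 66.3 CPM in LI and 165 CPM in SI selected cells against 8.30 and 24.0 CPM (2.86, 2.69 to 3.03, and 2.73, 2.60 to 2.85). Lbp, the lipopolysaccharide-binding protein, stood at 540.3 and 216 CPM against 103 and 42.3 CPM, and 74.7% of LI and 50.6% of SI selected cells had a UMI of it. Igfbp6 was at 1118 and 1793 CPM against 338 and 204 CPM. Sfrp4, a secreted Wnt antagonist, was at 275 and 131 CPM against 65.1 and 10.03 CPM, but in the SI graft 63.3% of its UMIs came from 10 cells. Sbsn, Lrrn4cl, Ifi205, Epyc (the small proteoglycan epiphycan) and Gngt2 completed the ranking together with Ly6c1, Ackr3, Uap1, Gfpt2, Fbln2 and Cfb. All 15 genes were higher in female and in male selected cells of both libraries, and at least 2-fold so in 15 of 15 except among male LI cells, where 10 of 15 were. The ranking used these same cells, so this agreement is no independent check.

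**Figure D3:**
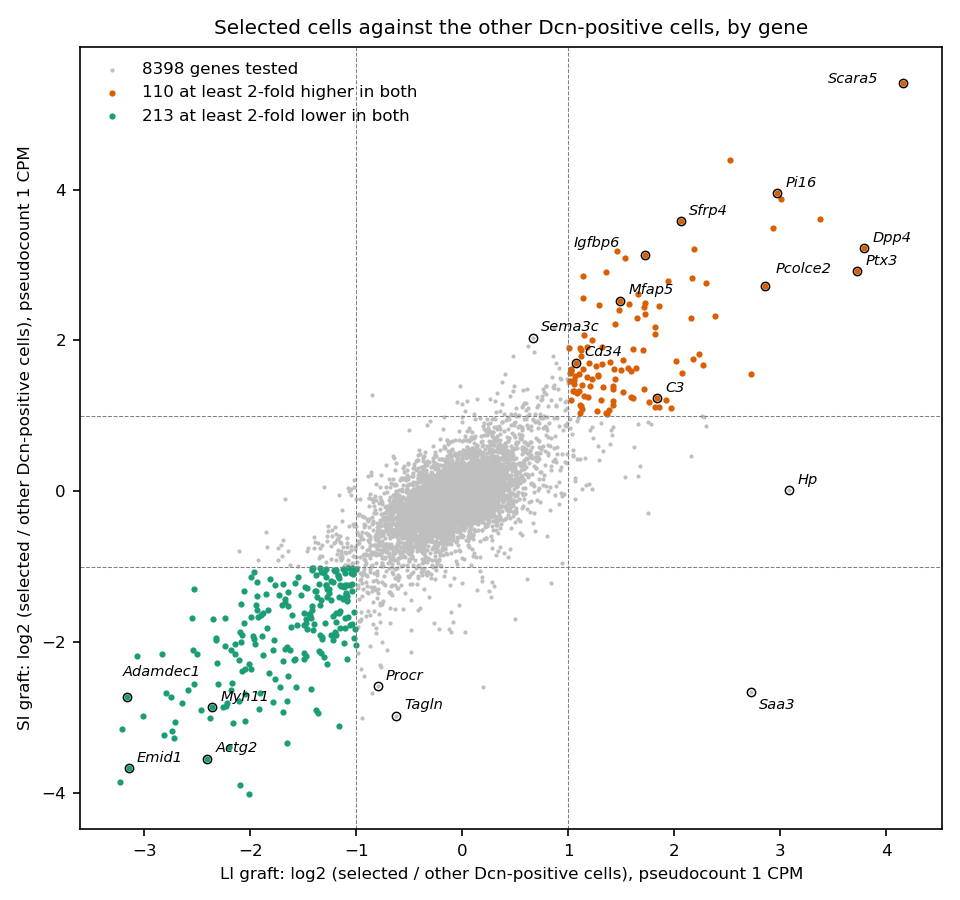
Log2 ratio of the selected cells to the other Dcn-positive cells in the LI graft (x axis) and the SI graft (y axis), 1 point per gene for 8398 genes; orange and green mark the 110 and 213 genes at least 2-fold higher or lower in both, dashed lines the 2-fold limits and rings the labelled genes. Pi16, Scara5, Dpp4 and Sema3c are genes of the rule; Saa3 lies at 2.72 in the LI and -2.66 in the SI graft.

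Elastic fibre and microfibril genes were split. Of 11 measured, 3 were higher and 0 lower, with medians of 0.47 and 0.50. Mfap5 (MAGP-2, a microfibril glycoprotein) stood at 1666 CPM in LI and 2264 CPM in SI selected cells against 593 and 392 CPM. Emilin2 stood at 38.7 and 47.1 CPM against 7.75 and 4.21 CPM, and Fbln2 (fibulin-2) at 468 and 277 CPM against 143 and 74.6 CPM. Eln, elastin itself, differed by 0.18 and 0.14, and Emilin1 stood at -0.83 and -1.27. Of 18 collagen genes 1 was higher, Col8a1 (1.03 and 1.59), and 1 lower, Col18a1 (-2.08 and -1.91), a collagen of basement membranes. Col1a1 and Col3a1 differed by less than 2-fold in either library, and Col14a1, a collagen that binds fibrils, by 0.97 and 1.18.

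Complement and cytokine genes gave few calls. Of 11 complement genes 2 were higher, C3 (987 and 1005 CPM against 274.5 and 427 CPM) and Cfb (119 and 88.6 CPM against 23.8 and 27.0 CPM), the 2 genes that form the alternative pathway convertase. Their list median was 0.71 in the LI and 0.54 in the SI graft. Of 17 chemokine and cytokine genes 2 were higher, Il33 and the monocyte chemokine gene Ccl7 (1.43 and 1.39), and 0 were lower.

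Signalling genes were mixed. Of 11 Wnt, R-spondin and Wnt antagonist genes 3 were higher, Rspo1 (53.1 and 53.7 CPM against 18.9 and 10.8 CPM), Sfrp4 and Sfrp2, and 1 was lower, Wnt4 (-1.12 and -1.28), with list medians of -0.23 and -0.24. Of 17 Bmp and TGF-beta genes, Fst (follistatin, which binds activins) was higher (1.14 and 2.85), while Bmp4 (-1.76 and -1.24) and Gdf15 (-1.28 and -1.40) were lower. Of 9 hedgehog pathway genes the co-receptor Cdon was higher (1.28 and 1.53), and Ptch1 (-1.73 and -1.38) and Hhip (-1.33 and -1.44), 2 transcriptional targets of the pathway, were lower. None of 15 growth factor genes was higher (0), and Kitl, Hgf and Ntf3 were lower. In the retinoid list (5 measured) and the adipose lineage list (3 measured), 0 genes were called in either direction.

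Among 24 transcription factor genes 3 were higher and 6 lower. Ebf2, a factor of mesenchymal and adipose precursors, stood at 26.6 CPM in LI and 15.2 CPM in SI selected cells against 5.11 and 3.80 CPM. Gata6 stood at 53.4 and 40.1 CPM against 19.1 and 12.4 CPM, and Prrx1, a limb and connective tissue factor, at 197 and 82.5 CPM against 80.7 and 27.7 CPM. Foxf1 (-1.97 and -1.08) and Foxf2 (-2.35 and -1.70), factors of the gut mesenchyme that respond to hedgehog signals, were lower, as were Tcf21, Tcf4, Pitx1 and Tbx3.

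The genes of other intestinal FB stood low or were mixed. Of 9 genes of the Fgfr2 and CD90/Igfbp5 FB list 4 were lower and 0 higher. Adamdec1 stood at 379.5 CPM in LI and 363 CPM in SI selected cells against 3409 and 2408 CPM in the others (-3.16, -3.21 to -3.12, and -2.73, -2.79 to -2.67). At 2000 UMIs it was found in 16.4% of LI and 15.7% of SI selected cells against 20.8% and 12.1% of all pericyte-marked barcodes and 16 of 250 and 23 of 625 of those without Dcn. The intervals of selected cells and of all pericyte-marked barcodes overlapped in both grafts. Whether the selected cells of either graft carried Adamdec1 above background cannot be told from these shares. Agt, angiotensinogen, stood at 21.9 and 7.85 CPM against 160 and 82.0 CPM, and Fgfr2 and Edil3 were the other called genes. Of 9 genes of PDGFRAhi FB 4 were lower (Tnc, Nrg1, Wnt4, Sox6). The CD81 FB list was mixed. Cd81 stood at 0.71 and 1.25, C3 was the 1 of 6 called, and Grem1, the Bmp antagonist of this subset, stood at -0.87 and -1.07.

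Markers of other lineages were mostly lower than in the other Dcn-positive cells. Of 8 smooth muscle markers 6 were lower, with Actg2 at 29.1 and 37.3 CPM against 159 and 447.5 CPM and Myh11 at 23.4 and 32.6 CPM against 125 and 244 CPM. Of 7 pericyte markers 5 were lower, and of 3 markers of interstitial cells of Cajal 2 were. At least 2 smooth muscle markers were still found in 33.2% of LI and 30.2% of SI selected cells, against 46.2% and 57.0% of the shallower others. At least 2 pericyte markers were found in 19.3% and 11.6% of selected cells, against 21.0% and 33.1%. Emid1, Pdlim3, Sept4, Cnn1, Fbxl22 and Rgs5 also stood among the 10 lowest genes. Mesothelial genes went the other way. Their summed level was 195 CPM in LI and 161 CPM in SI selected cells against 77.6 and 94.9 CPM, with 0 of 12 markers at 0. Wt1, a mesothelial and mesenchymal factor, was the called one, at 86.0 and 45.7 CPM against 27.9 and 14.5 CPM, while Msln reached 9.79 and 7.15 CPM and Upk3b 15.7 and 7.67 CPM. At least 3 mesothelial markers were found in 25 LI and 11 SI selected cells (2.63% and 1.82%), against 0.468% and 0.574% of the shallower others. Dpp4, a gene of the rule, also served the study as a mesothelial marker in the embryonic intestine. Without cells bearing 2 or more of a stricter set of mesothelial markers, which leaves 933 and 595 selected cells, the calls were within 1.5 times of those above. Endothelial, epithelial and glial markers summed to at most 16.0 CPM in the selected cells, and kidney tubule markers, of the host organ, to 35.6 and 27.7 CPM, with at least 3 of them in 2 cells of each library and Slc34a1, a phosphate transporter, as the 1 gene measured and called (10.1 and 21.1 CPM against 1.74 and 5.66 CPM). Immune markers summed to 47.3 and 56.3 CPM.

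Among cell state genes, those of MHC class II were found in more of the selected than of the other cells without thinning, and at equal depth the intervals for Cd74 were apart in the LI graft and overlapped in the SI graft. Of 6 measured cell cycle genes Mki67 was lower, and 1.05% of LI and 1.65% of SI selected cells carried at least 3 such genes against 1.84% and 3.14% of the others. At least 3 of Cd74, H2-Aa, H2-Ab1 and H2-Eb1, genes of MHC class II presentation, were found in 17.5% (15.1 to 20.1) of LI and 17.4% (14.4 to 20.6) of SI selected cells, against 8.82% and 11.8% of the shallower others. Cd74 at 2000 UMIs was found in 16.7% (14.4 to 19.3) and 15.5% (12.7 to 18.7) of selected cells, in 836 of 7713 (10.2 to 11.6%) and 781 of 6030 (12.1 to 13.8%) others, and 16 of 250 and 31 of 625 pericyte-marked barcodes without Dcn. Of 12 dissociation stress genes 0 were called, with medians of -0.49 in the LI and 0.20 in the SI graft.

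The selected cells were not uniform among themselves. Those with a Dpp4 UMI (202 LI and 107 SI cells) had higher levels of several ranked genes than those without (747 and 498 cells). Ptx3, the long pentraxin, stood at 1080 CPM with and 228 CPM without Dpp4 in the LI graft, and at 125 and 24.7 CPM in the SI graft. Sfrp4 stood at 578 and 175 CPM in the LI and 427.02 and 60.3 CPM in the SI graft. Grem1 went the other way, with 68.3 CPM with and 341 CPM without Dpp4 in the LI graft and 249.5 and 411 CPM in the SI graft. Dpp4 itself differed between female and male selected cells of the LI graft, with 49.0 and 4.30 CPM (7 UMIs in male cells), where sex and individual graft cannot be told apart. Within female cells alone, an alternative chosen after seeing the data, Ptx3 stood at 1163 and 264 CPM in LI and 167 and 16.7 CPM in SI. Sfrp4 stood there at 622 and 221 CPM and at 624 and 43.9 CPM, and Grem1 at 59.8 and 244 CPM and at 254 and 419 CPM, so all 3 kept their direction. Cells with Scara5 and Sema3c alone stood nearer to the other FB. They had 1446 CPM of Adamdec1 in the LI and 767 CPM in the SI graft, against 112 and 183 CPM in cells with Pi16 and Scara5 alone. Lbp stood at 60.3 and 45.2 CPM in the former and 523 and 354.5 CPM in the latter, and Igfbp6 at 425 and 469 CPM against 1152 and 2053 CPM. Tppp3 was higher in the former, at 389 and 568 CPM against 74.5 and 298 CPM.

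Between the grafts, the LI selected cells carried higher levels of the measured posterior Hox genes and of 8 listed chemokine and cytokine genes, and the SI selected cells higher levels of 6 listed interferon-induced genes, where 2 genes of that list were called after thinning before the rule. Of 8425 genes that reached 10 CPM in either library, 245 (2.91%) were at least 2-fold higher in the LI and 185 (2.2%) in the SI selected cells. The median gene differed by 0.02 on the log2 scale. Dissociation stress genes moved with the graft too. Of 12, 3 were higher in SI (Atf3, Hspa1a, Hspa1b) and 0 in LI, the list median was -0.61 in selected and 0.10 in other cells, and Atf3 stood at 1044 and 2432 CPM. In female cells all 3 were under 2-fold (Atf3 -0.86, Hspa1a -0.44, Hspa1b -0.37), and in male cells they were not (-1.77, -1.34, -1.41). Their part in the other differences was not tested. Each side is 1 library, so region, graft pool and library cannot be told apart.

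All 8 measured posterior Hox genes, which mark the hind part of the gut along its axis, were higher in the LI selected cells. Hoxa10 (chr6:52231197-52240854, minus strand) stood at 51.7 CPM in LI and 1.74 CPM in SI selected cells (log2 ratio 4.26, 3.63 to 4.86). Hoxd9, Hoxd10, Hoxd11 and Hoxa11 had 358, 206, 322 and 103 UMIs in the LI selected cells and 0 in the SI selected cells. Set against the floor of 3 UMIs over the SI selected cells (0.523 CPM), Hoxd9 was at least 73.6-fold higher, Hoxd11 at least 66.2-fold, Hoxd10 at least 42.3-fold and Hoxa11 at least 21.2-fold. Hoxa9, Hoxc9 and Hoxc10 were the other genes called. Anterior Hox genes leaned the other way, with 1 of 13 higher in LI (Hoxd8) and 5 higher in SI, among them Hoxb6 (6.13 CPM in LI and 19.5 CPM in SI) and Hoxc4 (10.8 and 26.5 CPM). The other Dcn-positive cells showed the same order, with Hoxa10 at 65.1 CPM in LI and 0.387 CPM in SI.

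Lcn2, Ctla2a and Saa3 led the ranking of genes higher in LI selected cells, and few cells held much of their signal. In the LI graft 10 cells held 43.3% of the Lcn2, 53.9% of the Ctla2a and 43.4% of the Hp UMIs. Lcn2, lipocalin-2, which binds bacterial siderophores, stood at 85.5 CPM in LI and 0.872 CPM in SI selected cells (5.53, 4.82 to 6.08). Saa3, a serum amyloid A of stromal and myeloid cells, stood at 347 and 12.4 CPM (4.70, 4.38 to 5.03). Only 66 LI selected cells (6.95%) had a Saa3 UMI, and 10 cells held 66.8% of its UMIs. Hp, haptoglobin, stood at 324 and 21.6 CPM (3.84, 3.60 to 4.10), with a UMI in 189 LI and 35 SI selected cells, and Ptx3 at 440.02 and 44.1 CPM (3.29, 3.11 to 3.47). Timp1, the metalloprotease inhibitor, stood at 2250.3 and 244 CPM and was spread widely, over 71.2% of LI and 64.8% of SI selected cells. Ctla2a, a protease inhibitor gene with close paralogues, Chrdl2, a Bmp-binding chordin-like protein, Dio3, the deiodinase that inactivates thyroid hormone, Sfrp2 and Prg4 (lubricin) completed the 10. Of 19 chemokine and cytokine genes 8 were higher in LI (Ccl2, Ccl7, Ccl8, Ccl11, Cxcl13, Cxcl14, Il11, Lif) and 2 in SI (Cxcl9, Cxcl10). In male cells Ccl8 (1.72 in female and -0.33 in male cells) and Cxcl13 (23.8 CPM in LI and 8.37 CPM in SI female cells, 1.84 and 4.66 CPM in male cells) changed sign, and Ccl11 was under 2-fold in female cells (0.65). Cxcl10 had a log2 ratio of -1.72 in female cells and fell just under 2-fold in male cells (-0.99). Ccl7 stood at 857 and 188 CPM and Ccl2 at 1040 and 428 CPM.

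Angptl1, an angiopoietin-like secreted protein, led the genes higher in SI selected cells, with 50.8 CPM in LI and 452 CPM in SI (-3.13, -3.27 to -2.99). Ackr4, a scavenging receptor for the chemokines that guide dendritic cells, stood at 14.3 and 89.3 CPM (-2.56, -2.83 to -2.30). Stmn4, a microtubule regulator, stood at 9.03 and 67.7 CPM, P2ry14 at 20.2 and 106 CPM, and Rgs5, a mural cell gene, at 43.3 and 213 CPM. Of 12 MHC class II and interferon genes 6 were higher in SI (Irf1, Gbp2, Gbp4, Igtp, Iigp1, Ifit3) and 0 in LI. After thinning Gbp4 changed sign (0.42), and in male cells Gbp4 (-0.72), Igtp (-0.35) and Iigp1 (-0.29) were under 2-fold. The class II genes of the list went in opposite directions by sex. Cd74 had a log2 ratio of -2.11 in female and 0.69 in male cells, and H2-Ab1 of -1.82 and 1.05. Cxcl10, an interferon-induced chemokine, stood at 421.5 and 1497 CPM. Of 17 adventitial genes 4 were higher in SI (Cd34, Creb5, Limch1, Tppp3) and 1 in LI (Procr, 69.0 and 17.3 CPM). Nrk, Adamts19 and Enpp3 completed the 10.

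The marker combinations differed between the grafts, and so did the numbers of female and male cells. Their part in these values was not tested. Within cells with Pi16 and Scara5 alone, Saa3 stood at 156 CPM in LI and 12.0 CPM in SI, Ptx3 at 209 and 63.1 CPM, Hp at 163 and 58.7 CPM, Timp1 at 2713 and 225 CPM and Angptl1 at 21.8 and 152 CPM, so each kept its direction there. Stmn4 stood at 4.54 and 13.1 CPM in the same cells.

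Within female cells alone, all 10 genes of each ranking kept their direction at 2-fold or more (10 of 10 for LI and 10 of 10 for SI). Within male cells 9 of 10 and 10 of 10 kept the direction, and 9 and 8 of them at 2-fold or more. The genes were ranked on these same cells, and 720 of the 949 LI selected cells were female. Agreement within a sex is thus in part set in advance and is no independent check. Ctla2a stood at 225 CPM in female and 3308 CPM in male LI selected cells, and Chrdl2 at 9.01 and 176 CPM, so that 129 male cells held most of the signal of either gene. Prg4 was the other extreme, with 148 CPM in female and 1.23 CPM in male LI selected cells (2 UMIs), and 12.1 and 5.83 CPM in SI. Hp (416 CPM in female and 86.6 CPM in male LI cells), Saa3 (438 and 84.7 CPM) and Ptx3 were higher in the female LI cells. Cxcl10 (282 and 1051 CPM) and Gbp4 (3.51 and 44.8 CPM) were higher in the male LI cells, and also in the male SI cells.

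**Figure D4:**
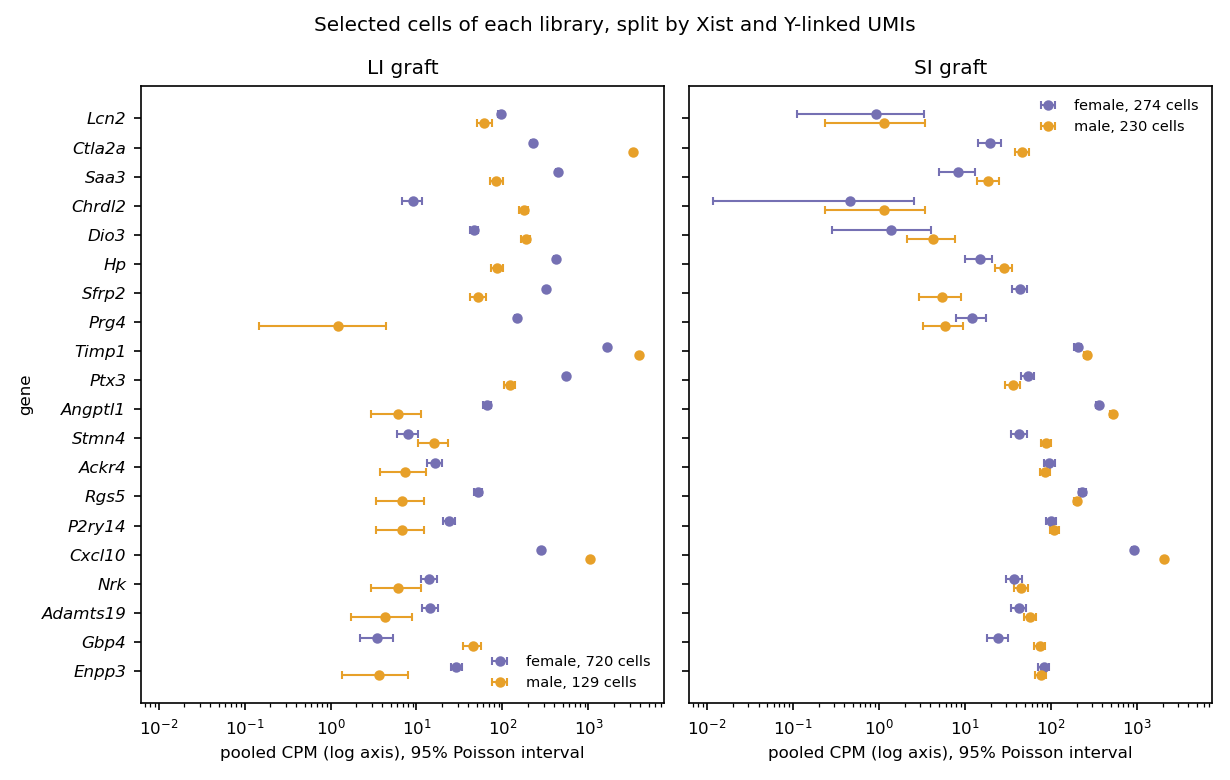
Pooled level (x axis, CPM on a log scale, with Poisson 95% intervals) of the 10 genes ranked highest in the LI and the 10 ranked highest in the SI selected cells (y axis), in female (purple) and male (orange) selected cells of the LI graft (left) and SI graft (right). Ctla2a, Chrdl2, Prg4 and Gbp4 lie far apart between female and male cells of the LI graft.

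The ratios between the grafts in selected cells were set against those in the other Dcn-positive cells. The LI to SI ratio of selected cells was at least 2-fold above that of the other cells for 112 genes (1.33%) and at least 2-fold below it for 75 (0.89%). Saa3 stood furthest apart, with a log2 ratio of 4.70 in selected and -0.69 in other cells (51.7 CPM in LI and 83.8 CPM in SI). Lcn2 followed with 5.53 and 1.87, then Hp with 3.84 and 0.77. Hp was at 37.4 CPM in LI and 21.5 CPM in SI among the other cells, so that its log2 ratio of selected to other cells was 3.08 in the LI and 0.01 in the SI graft. By cells at 2000 UMIs, Hp was found in 12.0% (9.98 to 14.2) of LI selected cells against 2.37% (2.04 to 2.74) of the others, and in 3.51% (2.18 to 5.31) against 1.33% (1.05 to 1.65) in SI. In male cells alone the difference of its ratios changed sign (-0.35). Ndufa4l2, a mitochondrial protein of mural cells, and Tagln, an actin-binding protein of smooth muscle, came next. Tagln stood at 917 CPM in LI and 233 CPM in SI selected cells against 1411 and 1843 CPM in the others, and 10 cells held 34.3% of its LI and 59.5% of its SI UMIs.

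On the other side, Ren1 (renin), Fst, Cadm3, Myoc (myocilin) and Sfrp4 had the lowest ratios relative to the other cells. Ren1 stood at 173 CPM in LI and 25.5 CPM in SI selected cells, against 62.3 and 1.91 CPM in the others, and at 431 CPM in male against 54.7 CPM in female LI selected cells. Cadm3, an adhesion protein, stood at 25.8 and 73.2 CPM in selected cells and was nearly level in the others, at 8.28 and 7.71 CPM. Pooled over the sexes, Fst and Sfrp4 were higher in LI than in SI in both kinds of cells, but less so in the selected cells (1.07 against 2.78 for Fst and 1.06 against 2.58 for Sfrp4). Within the sexes, Sfrp4 of selected cells changed sign, with 0.90 in female and -1.36 in male cells. Fst did not, with 1.52 and 1.15. Prg4, Cxcl10 and Gbp4 had nearly the same ratio in both kinds of cells.

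**Figure D5:**
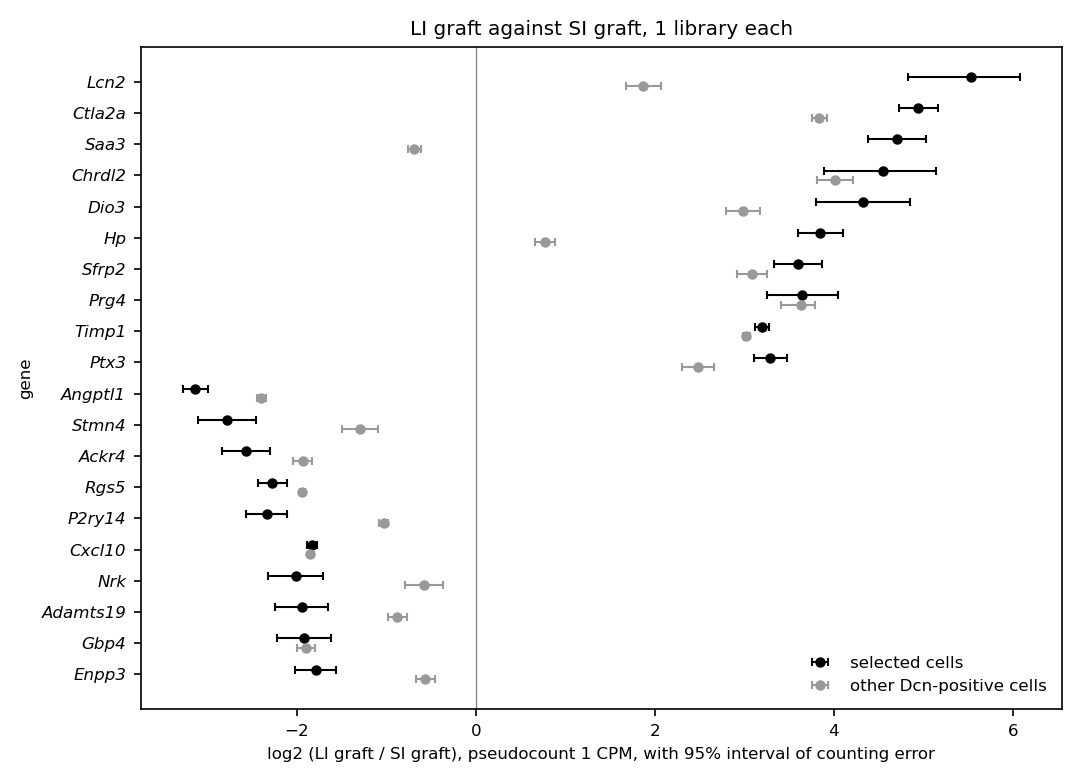
Log2 ratio of the LI to the SI graft (x axis, pseudocount of 1 CPM, with 95% intervals of counting error) for the 10 genes ranked highest in the LI and the 10 ranked highest in the SI selected cells (y axis), in selected cells (black) and in the other Dcn-positive cells (grey). Saa3 lies at 4.70 in the selected and -0.69 in the other cells, while Prg4 and Cxcl10 overlap.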

How the data were processed

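The deposited matrices hold raw UMI counts per gene and barcode, which the authors made with Cell Ranger 3.1.0 against mm10 and did not normalize. Seurat 3 is also named in the submitters' notes. The kit is given as a 3′ v3 or a 5′ kit without saying which library used which. The study's own limits for cells were not given in the sources used here, and the limits above stand in for them.

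Each of the 28692 features was summed over the selected and the other Dcn-positive cells of each library, as CPM. Ratios have a pseudocount of 1 CPM and an interval from the exact binomial split of the UMIs. Shares have exact Clopper-Pearson intervals, and levels exact Poisson intervals. Thinning drew 2000 UMIs per cell at random without replacement (seed 1). No test was made, since each group is 1 library. PCR copies are removed by UMIs, but cells of 1 pool share their source. The calling steps were tested on simulated data. Doublets were kept, and removing them (the highest Scrublet scores) was an alternative. Features whose symbol occurs on more than 1 feature (58 symbols) were not ranked.

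The members, the gene lists and the comparisons were chosen with earlier results of these data known. The named genes are the listed genes, the 15 highest and 10 lowest against the other cells by the smaller of the libraries' log2 ratios (at least 50 CPM), the 10 highest in each graft by the interval bound nearest 0, and the 5 at either end of the difference between ratios. Genes of the rule, mitochondrial, haemoglobin and sex-linked genes were left out of rankings, and Hox genes out of those between grafts. Of 334 listed genes 3 were not used. The 31 lists include markers of other lineages. Coordinates come from GENCODE vM21 on GRCm38, matched by Ensembl ID. edgeR 4.0.16 in R 4.3.3 gave TMM factors only, scanpy 1.11.5 ran Scrublet, and the rest used scipy 1.17.1, pandas 2.3.3 and numpy 2.4.6 in Python 3.11.15.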

Additional observations from a re-analysis of the deposited data

Results flagged for a closer look

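By pooled level, Saa3 moved in opposite directions in the 2 libraries. In the LI graft its log2 ratio of selected to other Dcn-positive cells was 2.72 (2.65 to 2.80), and in the SI graft it was -2.66 (-2.99 to -2.35). The difference between the libraries was not tested, since each is 1 library. Its UMIs came from few cells, 66 of 949 selected cells of the LI graft and 9 of 605 of the SI graft. In female LI selected cells it stood at 438 CPM against 28.4 CPM in the female others, and in male LI selected cells at 84.7 CPM against 151 CPM in the male others.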

How the results depend on the processing

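No paired analysis was possible because each group is 1 library. The share of selected cells among Dcn-positive cells was 9.56% in the LI graft at 200 genes and 20% mitochondrial UMIs, and 11.2% at 1000 genes and 5%. It was 2.34% (LI) and 2.78% (SI) with 3 of 4 markers, 3.27% and 2.94% after thinning, 9.58% and 6.88% in female cells, and 15.6% and 13.9% in male cells (an alternative chosen after seeing the data).

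At a minimum of 50 CPM the counts were 59 higher and 55 lower than the other cells, 106 higher in LI, 81 higher in SI, 43 with an LI to SI ratio above and 32 below that of the other cells. With no minimum beyond 1 UMI they were 167, 380, 505, 398, 327 and 209. With 3 of 4 markers, 380 were higher in LI, 277 above and 162 below. Thinning before the rule, which leaves 275 and 188 cells at 2000 UMIs each, gave 864 higher in LI, 674 higher in SI, 836 above and 590 below. In female cells 132 were below. With a pseudocount of 5 CPM 42 were below. Male cells alone gave 49 higher and 122 lower than the other cells, 662 higher in LI, 751 higher in SI, 291 above and 249 below, from 129 and 230 cells. Leaving out cells with 2 markers of any other lineage left 472 LI and 341 SI selected cells. It gave 139 lower, and 0 smooth muscle markers lower, which follows from leaving out by those genes.

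Of the lists, 6 adventitial genes were higher in male cells, 2 genes of the Fgfr2 list were lower at 50 CPM, and 2 (thinned) and 10 (female) MHC class II and interferon genes were higher in SI. Signs changed for Gbp4 between the grafts after thinning (0.42), for Prg4 between the grafts in male cells (-1.62), for the Hp difference between the LI to SI ratios of selected and other cells in male cells (-0.35), and for Myh11 against the other cells without other lineages (0.091 in LI and 0.072 in SI), where Myh11 is itself a marker used. The cause of the other changes was not tested. Of 1200 named gene values under all alternatives together, 753 stayed within their interval, 442 left it without a change of sign and 5 changed sign. Removing doublets left 824 LI and 560 SI selected cells, and 33 of 80 named gene values left their interval there, with 0 changes of sign.

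The share of selected cells with a Cd34 UMI was 28.5% (LI) and 54.0% (SI) at 1000 UMIs and 82.3% and 95.4% without thinning, and that with an Adamdec1 UMI was 12.1% and 11.6%, and 26.1% and 27.3%. Depth thus sets every share of cells with a UMI, and Dpp4 with 340 and 150 UMIs over all selected cells is the least certain of the marker genes.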
